A study of Mus musculus with 15 samples.

Results

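Endothelial genes are the genes read mainly in the cells that line blood and lymphatic vessels. A list of 40 of them was followed here through 12 arrays of mouse lung and lung tumour, out of 18193 genes measured on the same arrays. The members were chosen by name as genes of blood and lymphatic endothelium, with no threshold on a measured value, but with earlier results of these data known. All 40 were measured, and none was left out for low signal. They fall into 32 general endothelial genes, 6 genes of lung capillaries and 2 genes of lymphatic endothelium.

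Gene expression was measured as single-colour array intensity in 4 groups of 3 arrays, all from mice of mixed background. At 12 months the groups were wild type lung and lung tumours labelled with a genotype that includes a deletion of Smad4 (Smad4d/d). Each tumour array held RNA from a piece of 1 tumour, and the lung arrays held RNA from pieces of whole lung. At 7 months the groups were wild type lung and lung labelled with the same mutant genotype, at an age that the series describes as preceding tumours. The 12-month comparison asks which genes separate tumours from normal lung, and the 7-month comparison which genes had changed earlier. Effects below cannot be assigned to a single part of the labelled genotype. At 12 months the mutant arrays held tumour pieces and the wild type arrays whole lung, so genotype and tumour tissue cannot be told apart. The Smad4 probe set does not show the deletion: it was at 2870, 2924 and 2664 in wild type and 3688, 2965 and 3255 in tumours at 12 months, and at 3304, 3194 and 3163 in wild type and 3345, 3364 and 3166 in mutant lung at 7 months. It was thus not lower in either group labelled as deleted. Whether this probe set lies in the deleted part is not known here, so these values do not check the label. No source used here gives the promoter or Cre line behind the deletion.

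Vascular endothelium senses VEGF through the receptors Kdr and Flt1 and angiopoietins through Tek, with Tie1 as a partner of Tek. Its identity is held by transcription factors of the ETS family, such as Erg and Fli1, and of the SOX family, such as Sox7, Sox17 and Sox18. In the lung it forms the dense capillary bed of the alveoli, where gas is exchanged, and lymphatic vessels run beside airways and larger vessels. A bulk sample reads all cells together, so fewer endothelial cells and less RNA per endothelial cell cannot be told apart in anything that follows.

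The 250 bases before the annotated start of 3 members are shown because these genes carry the main pattern and its exception: Tie1 was lower in tumours, Car4 had the lowest log2 fold change of the 40 but did not pass the test, and Bmx was higher. Each window lies outside the annotated gene. Sequences are RefSeq's for GRCm38.p6, each written along the gene's own strand. Tie1 is at chr4:118489850-118490099 on the minus strand, Car4 at chr11:84957504-84957753 on the plus strand and Bmx at chrX:164258194-164258443 on the minus strand. Capitals mark matches on either strand to 2 forms of the ETS element, AGGAAG and CGGAAG, or to 1 form of the SOX element, AACAAT. Other forms are not marked. A match on the other strand shows the reverse complement, and in these 3 windows no match overlaps another.
Tie1: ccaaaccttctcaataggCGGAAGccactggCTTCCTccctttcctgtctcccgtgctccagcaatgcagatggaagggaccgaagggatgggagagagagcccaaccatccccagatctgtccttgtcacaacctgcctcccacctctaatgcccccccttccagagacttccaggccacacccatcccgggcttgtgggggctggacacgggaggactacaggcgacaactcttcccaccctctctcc
Car4: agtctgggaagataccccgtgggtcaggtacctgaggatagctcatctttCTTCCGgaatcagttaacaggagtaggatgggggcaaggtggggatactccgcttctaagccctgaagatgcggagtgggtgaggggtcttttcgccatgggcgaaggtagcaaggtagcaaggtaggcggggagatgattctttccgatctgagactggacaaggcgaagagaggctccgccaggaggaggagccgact
Bmx: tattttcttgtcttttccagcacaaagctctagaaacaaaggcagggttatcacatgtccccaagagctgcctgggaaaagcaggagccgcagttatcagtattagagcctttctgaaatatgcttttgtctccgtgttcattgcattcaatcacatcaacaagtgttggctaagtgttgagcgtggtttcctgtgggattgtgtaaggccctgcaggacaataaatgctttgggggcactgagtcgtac
Tie1 held 1 match to each ETS form and Car4 held 1 match to CGGAAG on the other strand. The Bmx window held none of the 3 motifs. Nor did the windows of Cldn5 and Clec14a, both called lower in tumours, or those of Kdr, Ednrb and Prox1. The table of RefSeq promoters matched 17 of the 40 members, with 22 windows, some of them at starts inside a gene. AGGAAG was in 10 of these 22 windows (45.5%) and in 29.5% of all 32851 windows of that length. CGGAAG was in 2 (9.09% against 13.6% of all windows) and AACAAT in 4 (18.2% against 9.42%). These matches are descriptions of the letters and not of binding.

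Array medians ranged from 90.9 to 99.5, and the label of lung was checked against a cell type of the alveoli: the summed level of 9 alveolar type 2 genes was 63914 to 67236 in wild type and 37350 to 68398 in tumours at 12 months. Control probe sets for 18S ribosomal RNA were lower on the 3 tumour arrays, at 1121 to 2036, than on the wild type arrays of that age, at 5492 to 6933. At 7 months they were at 6556 to 8084 in mutant and 6866 to 7032 in wild type lung. The 3' to 5' ratio of the beta-actin control probe sets overlapped, at 1.56 to 1.78 in tumours and 1.65 to 1.70 in wild type at 12 months. At 12 months all 3 tumour arrays and 1 wild type array held Y-linked transcripts with low Xist, and the other 2 wild type arrays were high for Xist. At 7 months 5 of the 6 arrays held both Xist (4516 to 4959) and Y-linked transcripts. Wild type array 3 held Y-linked transcripts with Xist at 48.1, so the mix of sexes differed between the groups. The other 5 may hold RNA of more than 1 mouse, which the labels do not state. The part of the 18S difference in the results was not tested. The small number of arrays in each group limits how precise any value below can be.

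Most endothelial genes were lower in the tumours than in wild type lung of the same age. Of the 40 members, 23 were lower and 1 was higher at an adjusted p under 0.05 (limma, Benjamini-Hochberg adjustment over all 18193 genes), and 16 did not pass. Over all genes, 15.2% were called, 6.02% lower and 9.23% higher. The median log2 fold change of the members was -0.996, beside 0.01 over all genes. In 32 of the 40 members all 3 tumour values lay below all 3 wild type values, as did those of 17% of all genes. In 1 member all 3 lay above, as did those of 20.5% of all genes, and in 7 members the groups overlapped. The count of 23 depended on single arrays: it was 2 without wild type array 1 or array 3, 3 without wild type array 2, 4 without tumour array 1, 18 without tumour array 3 and 31 without tumour array 2. Over all genes the share called lower was 1.44%, 1.9% and 1.21% without wild type array 1, 2 and 3, in that order. It was 1.97%, 7.84% and 2.06% without tumour array 1, 2 and 3. The median of the members stayed between -1.21 and -0.81 in these fits, and the 23 members kept their negative sign in each of them.

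**Figure D1:**
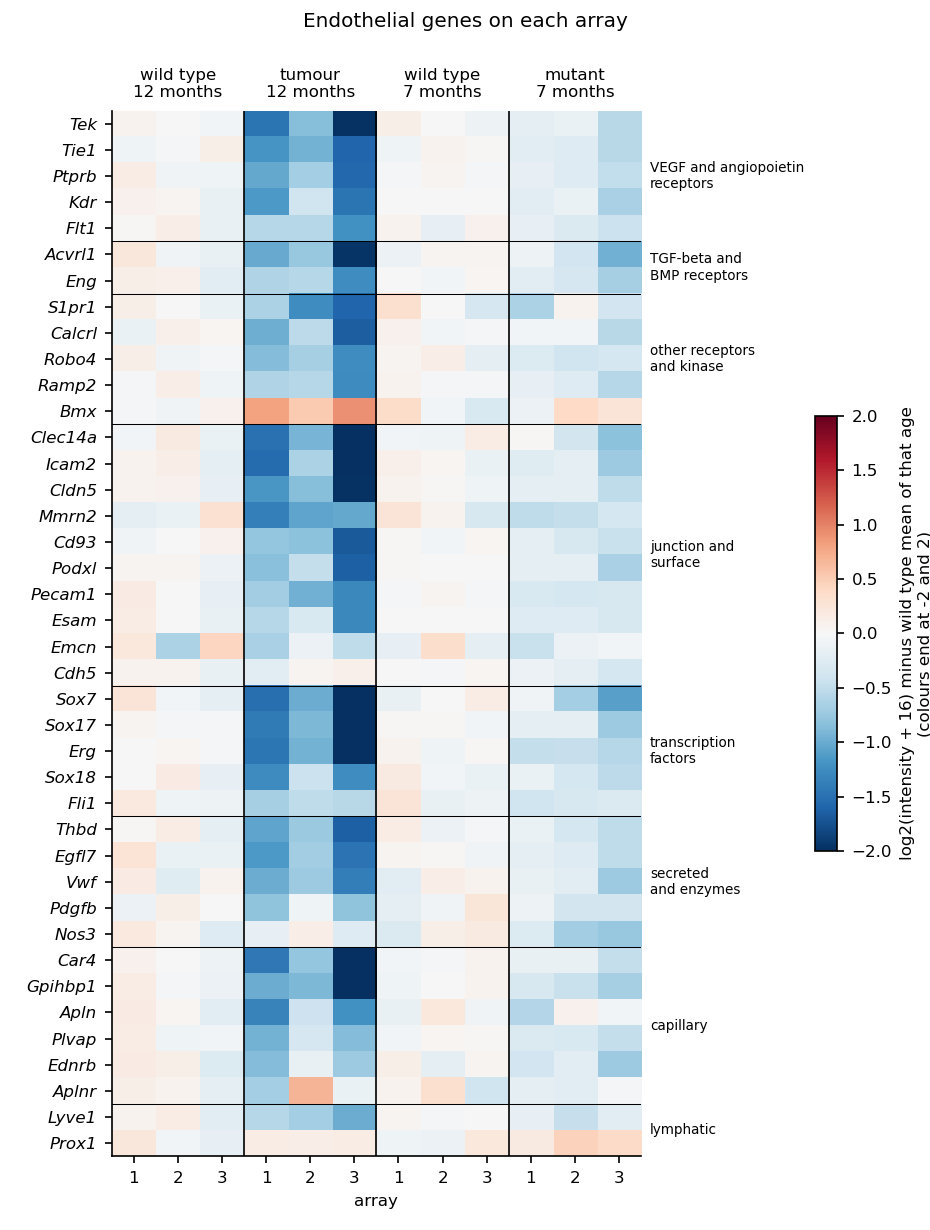
Each cell gives the log2(intensity + 16) of 1 endothelial gene on 1 array minus the mean of the 3 wild type arrays of the same age, with genes in rows by role and the 12 arrays in columns by group; colours end at -2 and 2. The 3 tumour columns are below wild type for 35 to 38 of the 40 genes, deepest on tumour array 3, and the 3 mutant columns at 7 months for 36 to 38 genes by smaller steps.

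All 5 receptors and phosphatases of the VEGF and angiopoietin systems were lower on every tumour array than on every wild type array, and 4 of the 5 were called. Tie1, the orphan partner of the angiopoietin receptor, was at 378, 394 and 436 on the wild type arrays and at 169, 201 and 123 on the tumour arrays. It was 2.36-fold lower (log2 fold change -1.24 ± 0.17 SE, adjusted p = 0.0104). Tek, the angiopoietin receptor itself, was at 2487, 2377 and 2279 in wild type and at 851, 1317 and 592 in tumours. The drop was 2.70-fold (-1.43 ± 0.27, adjusted p = 0.0216). Ptprb, the vascular endothelial phosphatase that acts on Tek, was 2.13-fold lower (adjusted p = 0.0270), and Flt1 was 1.72-fold lower (adjusted p = 0.0452). Kdr, the main signalling receptor for VEGF, had means of 2670 ± 227 and 1384 ± 554 (SD, n = 3 each) and did not pass (-1.01 ± 0.27, adjusted p = 0.0536).

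Of the 2 receptors for TGF-beta and BMP ligands on endothelium, Acvrl1 was 2.37-fold lower (-1.24 ± 0.31, adjusted p = 0.0469). Acvrl1 had means of 1108 ± 163 in wild type and 485 ± 193 in tumours. Eng, its co-receptor, had means of 992 ± 130 in wild type and 570 ± 141 in tumours and just missed the threshold (adjusted p = 0.0501). Neither gene overlapped between the groups.

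Among the other receptors and the kinase Bmx, 3 were lower and 1 was higher. Robo4, a guidance receptor of the endothelium, was at 856, 750.2 and 770.04 in wild type and at 428, 491 and 325 in tumours. This was a 1.90-fold drop (-0.92 ± 0.16, adjusted p = 0.0166) with a clear gap between the lowest wild type and the highest tumour value. S1pr1, the receptor for sphingosine 1-phosphate that keeps the vessel barrier, was 2.22-fold lower (adjusted p = 0.0279). Ramp2, the partner that makes Calcrl a receptor for adrenomedullin, was 1.75-fold lower (adjusted p = 0.0441). Calcrl itself had means of 7712 ± 640 and 3896 ± 1462 and did not pass (adjusted p = 0.0528). A dimmer probe set of Calcrl went from a mean of 385 to 84.2 and was called lower (-2.07, adjusted p = 0.0139 over all probe sets). A still dimmer one was not called (-0.46, adjusted p = 0.149).

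Bmx went the other way. This cytoplasmic tyrosine kinase of arterial endothelium was at 222, 214 and 241 in wild type and at 406, 329 and 436 in tumours. It was 1.67-fold higher (0.74 ± 0.12, adjusted p = 0.0148), and it was the only member called higher. Bmx is on the X chromosome, and 2 of the 3 wild type arrays were high for Xist while the tumours were not. Against the 1 wild type array with Y-linked transcripts and low Xist, the adjusted p of Bmx was 0.0502. It was also not called without tumour array 1 or without any 1 of the wild type arrays.

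All 5 transcription factors were lower. Erg, an ETS factor of endothelial identity, was at 816, 843 and 798 in wild type and at 289, 415 and 184 in tumours. It was 2.80-fold lower (-1.49 ± 0.26, adjusted p = 0.0186), with an SD of 22.7 over the wild type and 116 over the tumour arrays. Sox17, a SOX factor of arterial endothelium, was at 1692, 1607 and 1602 against 602, 871 and 352 (2.81-fold lower, adjusted p = 0.0260). Sox7, of the same subfamily, was at 2469, 1978 and 1804 against 718, 1028 and 419. The log2 fold change of Sox7, -1.59 ± 0.32 (adjusted p = 0.0254), was the lowest of the 5 factors. Fli1, an ETS factor shared with blood cells, changed least of them: 1594, 1306 and 1288 in wild type against 872, 969.9 and 939 in tumours, 1.49-fold lower (-0.58 ± 0.11, adjusted p = 0.0219). Sox18 was 1.97-fold lower (adjusted p = 0.0433).

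Of 10 junction and surface genes, 5 were called lower, beside 6.02% of all genes. All 3 tumour values lay below wild type in 8 of the 10, as in 17% of all genes. Pecam1, the adhesion molecule CD31, was at 1067, 960 and 852 in wild type and at 586, 485 and 381 in tumours. It was 1.97-fold lower (-0.98 ± 0.17, adjusted p = 0.0180). Mmrn2, a matrix protein laid down by endothelium, was at 892, 922 and 1251 against 381, 477 and 488 (2.22-fold lower, adjusted p = 0.0111). Clec14a, a C-type lectin and Mmrn2 binding partner, had the largest called drop of all 40 members at 3.05-fold (-1.61 ± 0.36, adjusted p = 0.0332), the related Cd93 fell 2.13-fold (adjusted p = 0.0357) and Cldn5, the tight junction claudin, fell 2.51-fold (adjusted p = 0.0295). Icam2, Podxl and Esam had log2 fold changes of -1.54, -0.99 and -0.72, no overlap and adjusted p of 0.0615, 0.0686 and 0.113.

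Cdh5 stood apart from the other junction genes. This gene encodes VE-cadherin, the adherens junction protein of endothelium. It was at 3362, 3383 and 2901 in wild type and at 2741, 3331 and 3444 in tumours, with a log2 fold change of -0.02 ± 0.12 (adjusted p = 0.924). Its second probe set, much dimmer, went from a mean of 92.5 to 46.1 and was called lower (-0.84, adjusted p = 0.0446 over all probe sets), so the 2 probe sets of Cdh5 disagree. Emcn, a sialomucin of capillaries and veins, was at 590.0, 319 and 685 against 317, 465 and 352 and overlapped (adjusted p = 0.396). Cdh5, Emcn and Nos3 were singled out after their values were seen.

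Of 5 secreted proteins and enzymes, 3 were lower. Vwf, the von Willebrand factor of platelet adhesion, was at 3336, 2496 and 3122 in wild type and 1474, 1786 and 1127 in tumours (2.05-fold lower, adjusted p = 0.0212). Egfl7, a secreted regulator of vessel growth, was at 3216, 2429 and 2442 against 1202, 1647 and 955 (2.15-fold lower, adjusted p = 0.0249). Thbd, the thrombin-binding anticoagulant thrombomodulin, was 2.21-fold lower (adjusted p = 0.0260). Pdgfb, the ligand by which endothelium recruits pericytes, had a log2 fold change of -0.57 and overlapped (adjusted p = 0.127). Nos3, the endothelial nitric oxide synthase, was at 410.04, 372 and 297 against 317, 393 and 294, with a log2 fold change of -0.10 ± 0.16 (adjusted p = 0.730).

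The 6 capillary genes included large differences that did not pass the test. Car4, a carbonic anhydrase of the alveolar capillary wall, was at 3442, 3266 and 3002 in wild type and at 1184, 1885 and 511 in tumours. Its log2 fold change of -1.61 ± 0.44 was the lowest of the 40, but the tumours spread by an SD of 687 and the adjusted p was 0.0582. Gpihbp1, which anchors lipoprotein lipase to capillaries, was at 2494, 2212 and 2077 against 1129, 1205 and 405 (-1.44 ± 0.41, adjusted p = 0.0645). Apln, the ligand apelin, was at 521, 476 and 399.9 against 174, 345 and 190.5 (-0.98 ± 0.26, adjusted p = 0.0514). In each of these 3 genes every tumour array lay below every wild type array.

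Plvap, which forms the diaphragms of fenestrae and caveolae, was the capillary gene that passed. It was at 2770.2, 2366 and 2416 in wild type and at 1297, 1985 and 1371 in tumours, 1.64-fold lower (-0.72 ± 0.18, adjusted p = 0.0440). Ednrb, an endothelin receptor, was at 2355, 2260.2 and 1719 against 1137, 1885 and 1262, so tumour array 2 reached into the wild type range (adjusted p = 0.134). Aplnr, the apelin receptor, was at 1093, 1057 and 886 against 622, 1623 and 916 (-0.05 ± 0.33, adjusted p = 0.943). Its tumour values spanned both sides of the wild type range. The median log2 fold change was -0.85 over the 6 capillary genes and -1.04 over the 32 general genes.

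The 2 lymphatic genes differed in their values. Lyve1, a hyaluronan receptor of lymphatic endothelium that macrophages also carry, was at 6619, 6935 and 5393 in wild type and at 4246, 3910 and 3133 in tumours. It was 1.68-fold lower (-0.75 ± 0.15, adjusted p = 0.0265). Prox1, the transcription factor that specifies lymphatic endothelium, was dim, at 97.5, 76.9 and 70.2 against 91.5, 90.1 and 91.5 (0.14 ± 0.12, adjusted p = 0.467). The groups overlapped for Prox1, and its other 2 probe sets were not called either.

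**Figure D2:**
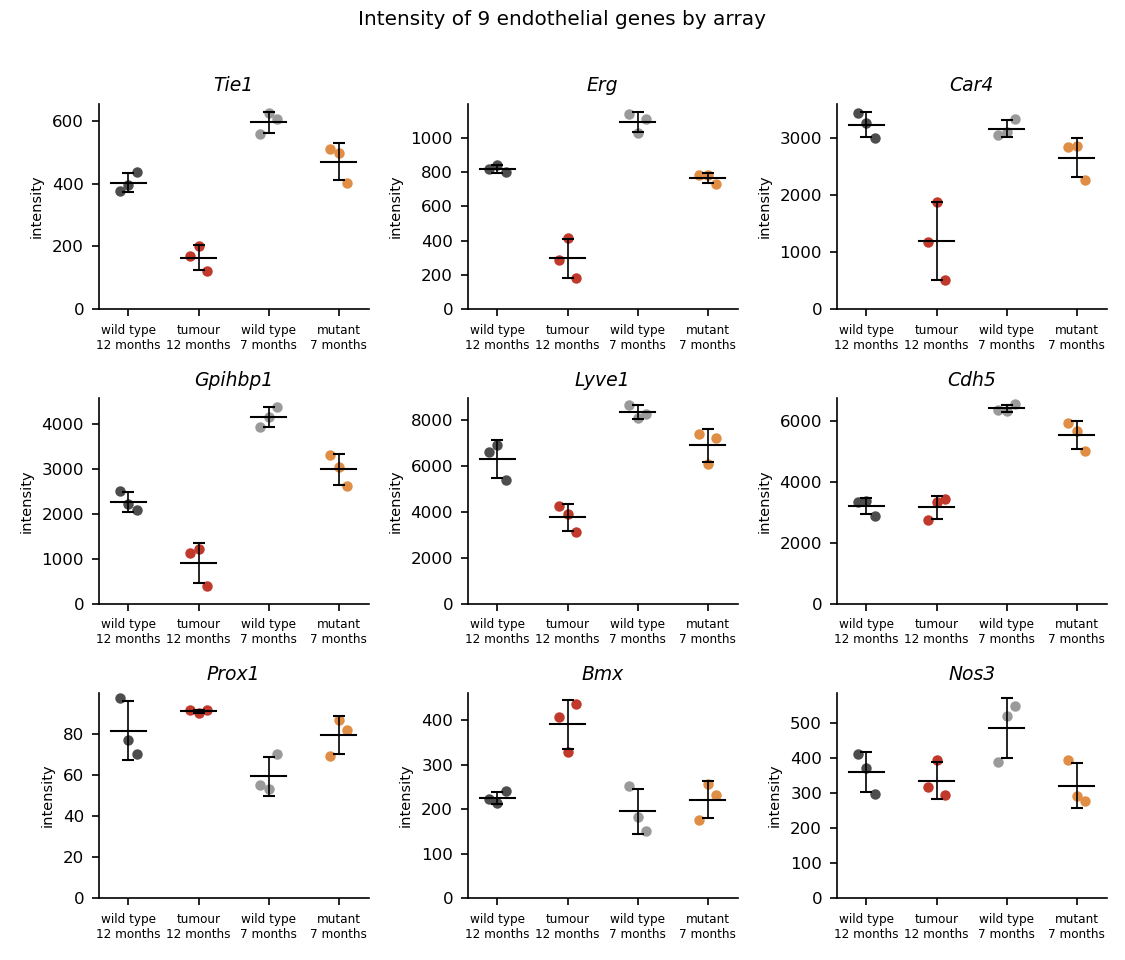
Intensity of 9 endothelial genes on each array, with 1 point per array, a bar for the mean of 3 arrays and an error bar for the SD, for wild type and tumour at 12 months and wild type and mutant lung at 7 months. Tie1, Erg, Car4, Gpihbp1 and Lyve1 lie lower in tumours without overlap, Bmx lies higher, and the tumour values of Cdh5, Nos3 and Prox1 overlap wild type.

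The order of the tumour arrays was alike for most members. Tumour array 3 was the lowest of the 3 tumours for 28 of the 40 members, and tumour array 2 was the highest for 32. The median log2 deviation of the 40 genes from wild type was -0.96, -0.65 and -1.34 on tumour arrays 1, 2 and 3. Within a group, the coefficient of variation had a median over the 40 members of 10% in wild type at 12 months and 30.8% in tumours. The tumour pieces differed more among themselves in these genes than the wild type lungs did. The 12 alveolar type 1 genes were ordered alike, with a median deviation of -0.66, -0.34 and -1.46 on the same 3 arrays. Not every list was: the median was 0.35, 0.54 and 0.88 for smooth muscle and -0.07, 0.28 and 0.57 for fibroblast genes.

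Other probe sets of the same genes gave a second reading within the same samples. Of 34 further probe sets for 21 of the members, 33 had a negative log2 fold change in tumours, 17 were called lower and 0 were called higher. The 1 probe set with a positive value, a dim one of Prox1 (0.22), was not called.

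At 7 months the mutant lungs showed the same direction with smaller differences. Of the 40 members, 6 were lower and 0 were higher at an adjusted p under 0.05 (limma), while 7.81% of all genes were called, 1.39% lower and 6.42% higher. At an unadjusted p under 0.05, 31 members were lower and 1 was higher. Over all 18193 genes, 1675 were lower and 2567 higher at that threshold. The median log2 fold change was -0.33, beside 0.01 over all genes, and 38 members had a negative sign. In 27 members all 3 mutant values lay below all 3 wild type values, as did those of 10.9% of all genes. The count of 6 was 0 when all 15 arrays shared 1 estimate of the spread and 1 when only the 2 groups were fitted. It was 9 without mutant array 1, 3 without mutant array 2 and 15 with a variance trend and robust fitting. Over all genes the share called lower was 0.572% with all 15 arrays and 0.203% with the 2 groups. It was 0.896% and 0.824% without mutant array 1 and 2, and 3.05% with the variance trend. The sign of the 6 genes held in all 18 settings.

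Erg had the largest of the 6 called differences. It was at 1141, 1027 and 1108 in wild type lung and at 782, 785 and 731 in mutant lung, 1.42-fold lower (-0.50 ± 0.07, adjusted p = 0.00308). Gpihbp1 was at 3922, 4152 and 4362 against 3307, 3037 and 2608 (1.39-fold lower, adjusted p = 0.0146). Pecam1 was at 1412, 1479 and 1397 against 1155, 1121 and 1138 (1.25-fold lower, adjusted p = 0.0138). Neither group of these 3 genes reached into the other. Plvap was 1.28-fold lower (adjusted p = 0.0330), Cd93 1.25-fold lower (adjusted p = 0.0387) and Esam 1.22-fold lower (adjusted p = 0.0167). Pecam1, Erg, Plvap and Cd93 were called at both ages.

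Of the angiopoietin and VEGF receptors, none was called at 7 months on the probe set used. All 5 lay below wild type without overlap, as did 10.9% of all genes. All 5 also had an unadjusted p under 0.05 (limma), beside 1675 of 18193 genes in the lower direction. Another probe set of Flt1 was called lower (-0.45, adjusted p = 0.0133 over all probe sets), as was a further one (-0.42, adjusted p = 0.0248). A dimmer one was not (-0.33, adjusted p = 0.0797). Tie1 was at 559, 624 and 605 in wild type and at 509.7, 497 and 402 in mutant lung (-0.34 ± 0.09, adjusted p = 0.0663). Tek was at 2933, 2684 and 2524 against 2387, 2456 and 1841 (-0.29 ± 0.12, adjusted p = 0.197). Robo4 was at 1215, 1285 and 1020.5 against 961, 879 and 917 (-0.34 ± 0.09, adjusted p = 0.0552). Mutant array 3 was the lowest mutant array for Tie1 and Tek, and for 28 of the 40 members.

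Among the remaining transcription factors, Sox7 was at 1805, 1995 and 2231 in wild type and at 1909, 1241 and 935 in mutant lung. Mutant array 1 lay inside the wild type range, and the log2 fold change of -0.61 ± 0.22 did not pass (adjusted p = 0.142). Sox17 was at 1698, 1700.0 and 1616 against 1480.4, 1460.5 and 1006 (adjusted p = 0.162). Fli1 was at 1352, 1026 and 1049.9 against 859, 903 and 928 (adjusted p = 0.104). Sox17 and Fli1 did not overlap between the groups.

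The secreted proteins and the matrix protein Mmrn2 were not called at this age. Vwf was at 2994, 3814 and 3664 in wild type and at 3128, 2959 and 2100.1 in mutant lung, with mutant array 1 inside the wild type range (adjusted p = 0.199). Egfl7 was at 3876, 3779 and 3542 against 3264, 3112 and 2631 without overlap (adjusted p = 0.0824). Mmrn2 was at 1123, 992 and 747 against 661, 673 and 736 (-0.44 ± 0.14, adjusted p = 0.101), with only a narrow gap between the groups. Nos3, which showed little difference in tumours, was at 388, 519 and 546 against 395, 291 and 277 (-0.57 ± 0.16, adjusted p = 0.0646). Mutant array 1 overlapped wild type for Nos3. Cdh5 was at 6375, 6328 and 6567 against 5932, 5667 and 5039 (-0.21 ± 0.07, adjusted p = 0.117), without overlap.

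Of the capillary genes, Gpihbp1 and Plvap passed at 7 months and the other 4 did not. Car4 was at 3061, 3102 and 3340 in wild type and at 2840, 2862 and 2261 in mutant lung (-0.26 ± 0.10, adjusted p = 0.146). Ednrb was at 3288, 2659 and 3145 against 2302, 2605 and 1823 (-0.44 ± 0.15, adjusted p = 0.118). Both lacked overlap. Plvap was at 3650, 3878 and 3841 against 3097, 3060.1 and 2716. Apln was at 535, 698 and 571 against 392.1, 633 and 574, and Aplnr at 1246, 1487 and 898 against 1041, 1026 and 1162. These last 2 genes overlapped and had adjusted p of 0.576 and 0.711.

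The lymphatic genes were not called at 7 months. Lyve1 was at 8680, 8106 and 8278 in wild type and at 7418, 6076 and 7227 in mutant lung (-0.28 ± 0.10, adjusted p = 0.150), without overlap. Prox1 was at 54.9, 52.95 and 70.4 against 69.4, 86.9 and 82.1 (0.34 ± 0.10, adjusted p = 0.0875). It was the member with an unadjusted p under 0.05 in the higher direction. Bmx was at 251, 183 and 152 against 175, 256 and 232 and overlapped (0.18 ± 0.18, adjusted p = 0.610).

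**Figure D3:**
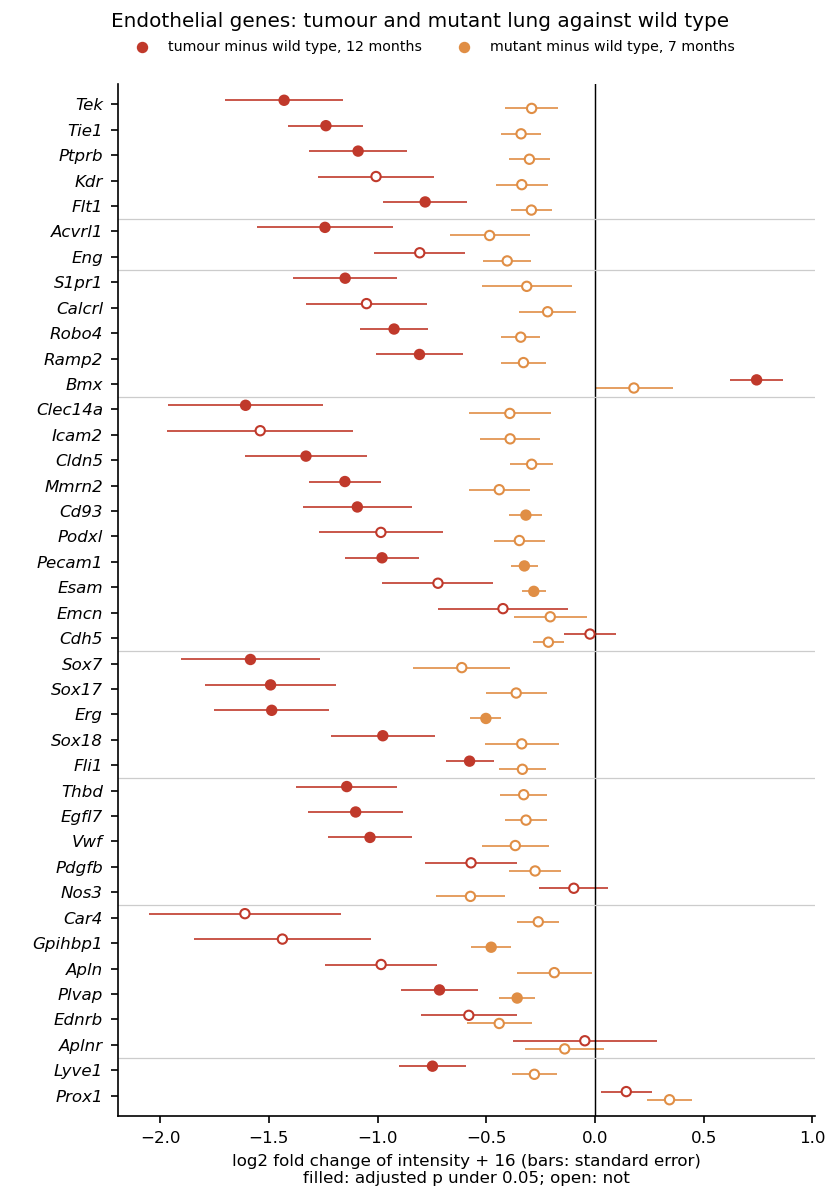
Log2 fold change of each endothelial gene against wild type of the same age, in tumours at 12 months and in mutant lung at 7 months, with bars for the standard error; filled points passed an adjusted p under 0.05 and open points did not. Tumour points reach down to -1.61 and 7-month points to -0.61, while Bmx and Prox1 lie to the right of 0 at both ages.

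The effect in tumours was set against the effect in mutant lung in 1 contrast over all 15 arrays. On the probe sets used, only Tie1 differed at an adjusted p under 0.05 (limma). Its log2 fold change was lower in tumours than in mutant lung by a difference of -0.90 ± 0.20 (adjusted p = 0.0289). A second probe set of Calcrl was also called lower (-1.75 ± 0.37, adjusted p = 0.0288 over all probe sets). No member was called in the other direction. At an unadjusted p under 0.05, 24 members had a lower and 1 a higher value, beside 1729 and 1698 of all 18193 genes. Over all genes 3.17% were called, 1.41% lower and 1.75% higher. The median difference of the members was -0.67. The contrast joins 2 sets of arrays, so age, tumour tissue and array set cannot be told apart in it. The count of 1 rose to 20 without tumour array 2, to 9 with array weights and to 3 with a pseudocount of 64. Over all genes the share called lower was then 5.35%, 2.34% and 2.12%. The count was 0 without 12-month wild type array 3, mutant array 1 or 2, or 7-month wild type array 1 or 3. In those fits the share called lower over all genes was 0.594% to 0.753%.

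Wild type lung itself read differently at the 2 ages. In 26 of the 40 members all 3 wild type values at 12 months lay below all 3 at 7 months, in 0 they lay above, and 14 overlapped. The median ratio of the means, 7 over 12 months, was 1.34 over the members and 0.927 over all genes. Cdh5, for example, had wild type means of 6423 ± 126 at 7 months and 3215 ± 273 at 12 months. Age and array set cannot be told apart here, so these values carry no test, and each age was compared only with its own wild type.

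Part of the ligands and co-receptors of these receptors was lower as well. Of 11 VEGF and angiopoietin ligands and co-receptors measured, 3 were called lower in tumours and 0 higher (limma), beside 6.02% and 9.23% of all genes. At an unadjusted p under 0.05, 9 were lower and 0 higher, beside 2489 and 3106 of all 18193 genes. Vegfc, the growth factor of lymphatic vessels, was 1.79-fold lower (adjusted p = 0.00688), Nrp2, a VEGF co-receptor, 2.04-fold lower (adjusted p = 0.0123) and Angpt1, the activating ligand of Tek, 2.41-fold lower (adjusted p = 0.0318). Vegfa, singled out after its value was seen, had means of 2355 ± 181 and 1198 ± 512 and did not pass (adjusted p = 0.0528). Vegfa is also in the list of alveolar type 1 genes. At 7 months 2 of the 11 were called lower, beside 1.39% of all genes. They were Angptl4, by 1.34-fold (adjusted p = 0.0157), and Nrp2, by 1.20-fold (adjusted p = 0.0396).

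Lists of pathways that act in endothelium held 1 to 4 genes called lower in tumours, beside 6.02% of all genes. Of 13 genes of the ALK1 pathway, which runs through Acvrl1 and Eng, 4 were lower and 1 was higher in tumours, and 1 higher gene of 13 is near the 9.23% called higher over all genes. The lower ones were the target genes Id2 (1.52-fold, adjusted p = 0.0196), Id1 (1.94-fold, adjusted p = 0.0423) and Tmem100 (2.65-fold, adjusted p = 0.0246), and the receptor Bmpr2 (1.64-fold, adjusted p = 0.0291). The ligand Gdf2 was 1.33-fold higher (adjusted p = 0.0434) at dim intensities, 24.9 ± 2.24 against 38.4 ± 5.2, and was singled out after its value was seen. At 7 months only Bmper, a BMP-binding protein, was called, 1.29-fold lower (adjusted p = 0.0278). Of 9 endothelial NOTCH genes, Notch4 was lower in tumours by 2.22-fold (limma, adjusted p = 0.0444). This 1 lower gene of 9 is near the 6.02% called lower over all genes. At 7 months none of the 9 was called, and 4 were lower at an unadjusted p under 0.05, beside 1675 of 18193 genes. Of 8 flow response genes, the vasoconstrictor Edn1 was 2.21-fold lower (limma, adjusted p = 0.0151) beside Tek, which is also 1 of the 40 members. Cyp1b1, a cytochrome P450, was 1.87-fold higher (adjusted p = 0.0281), and 1 higher gene of 8 is near the 9.23% of all genes.

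Part of the adhesion molecules by which endothelium catches leukocytes was higher in tumours. Of 7 such genes, 3 were called higher in tumours and 0 lower, beside 9.23% and 6.02% of all genes. At an unadjusted p under 0.05, 3 were higher and 1 lower (limma), beside 3106 and 2489 of all 18193 genes. The lowest log2 fold change of the list was -0.88. The summed level of the 7 genes was 7972 to 8590 in wild type and 6396 to 7506 in tumours. Selp, P-selectin, was at 207, 213 and 119 in wild type and at 609, 594 and 909.7 in tumours. It was 3.71-fold higher (1.89 ± 0.26, adjusted p = 0.0103), and the groups lay far apart. Ackr1, a chemokine-binding receptor of venular endothelium, was at 138, 99.7 and 118 against 310.3, 228 and 320.1 (2.24-fold higher, adjusted p = 0.0108). Madcam1 was 1.504-fold higher (adjusted p = 0.0102) near the lower end of the scale, at 9.37 ± 1.39 against 22.1 ± 1.12. At 7 months 0 of the 7 were called in either direction (limma), and none had an unadjusted p under 0.05.

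A longer list of 35 further blood endothelial genes had mostly the same direction as the 40. In tumours 20 were lower and 1 was higher, beside 6.02% and 9.23% of all genes, with a median log2 fold change of -0.89. Fibin was 2.22-fold lower (adjusted p = 0.00712), Scn7a, a sodium channel, 2.27-fold lower (adjusted p = 0.0128) and Ushbp1 2.65-fold lower (adjusted p = 0.0193). Exoc3l2 was higher by 1.62-fold (adjusted p = 0.0116), from 22.97 ± 1.95 to 47.2 ± 6.4. Cd34, a surface marker that other cells also carry, had a log2 fold change of -0.24 (adjusted p = 0.317) and was singled out after its value was seen. At 7 months 6 of the 35 were lower and 0 higher, beside 1.39% and 6.42% of all genes. Those with the smallest adjusted p were the junction regulator Rasip1 (1.28-fold, adjusted p = 0.0150), Mcam (1.28-fold, adjusted p = 0.0174), the long noncoding RNA Fendrr (1.47-fold, adjusted p = 0.0184) and the ephrin receptor Ephb4 (1.39-fold, adjusted p = 0.0293). The list was written with results on endothelial genes in these data known, so its direction is not independent of them.

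Of 10 further lymphatic genes, 3 were higher in tumours and 0 lower, beside 9.23% and 6.02% of all genes. Tbx1, a T-box factor, was 2.05-fold higher (adjusted p = 0.0180), Foxc2, a factor of lymphatic valves, 1.99-fold higher (adjusted p = 0.0252) and Nts 2.03-fold higher (adjusted p = 0.0296). Tbx1 was also higher at 7 months, by 1.39-fold (adjusted p = 0.0292). Foxc2 and Nts were dim in wild type lung, with means of 44.7 ± 0.51 and 46.1 ± 13.0. Flt4, the receptor for Vegfc, had a log2 fold change of -0.36 in tumours and Pdpn, podoplanin, of 0.05. Neither was called (adjusted p = 0.147 and 0.753). Flt4 is also in the list of VEGF ligands and co-receptors, and Pdpn in that of alveolar type 1 genes. Both were singled out after their values were seen.

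Pericyte genes, which mark the cells wrapped around capillaries, split. Of 13 measured, 3 were higher and 2 lower in tumours, beside 9.23% and 6.02% of all genes. Rgs5, a regulator of G-protein signalling in pericytes, was at 230.0, 227 and 206 in wild type and at 1541, 1613 and 2574 in tumours. It was 7.91-fold higher (2.98 ± 0.20, adjusted p = 0.00311). Kcnj8 and Abcc9, the channel and regulatory subunits of a potassium channel, were 2.35-fold (adjusted p = 0.00712) and 2.11-fold higher (adjusted p = 0.0205). Higd1b was 2.15-fold lower (adjusted p = 0.0148) and Notch3 1.43-fold lower (adjusted p = 0.0129). Pdgfrb, the receptor for Pdgfb, had a log2 fold change of -0.14 (adjusted p = 0.417) and Cspg4 of 0.24 (adjusted p = 0.397). Abcc9, Pdgfrb and Cspg4 were singled out after their values were seen. At 7 months 10 of the 13 had a negative log2 fold change, with a median of -0.22. Without overlap, 6 lay below wild type, as did 10.9% of all genes. Mcam, an adhesion molecule of pericytes and endothelium, was called lower (1.28-fold, adjusted p = 0.0174). Of the 13, 1 was thus called lower and 0 higher (limma), beside 1.39% and 6.42% of all genes. At an unadjusted p under 0.05, 7 were lower and 1 higher, beside 1675 and 2567 of all 18193 genes. Rgs5, the 1 on the higher side, was at 146, 217 and 219.9 in wild type and 208, 456 and 595 in mutant lung, which overlapped (0.95 ± 0.35, adjusted p = 0.142).

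Markers of other cell types moved beside the endothelial genes. Over all genes, 6.02% were called lower and 9.23% higher in tumours, and 1.39% and 6.42% at 7 months. All 12 epithelial genes were higher in tumours, with a median log2 fold change of 1.30, and their summed level was 17308 to 19290 in wild type and 35912 to 42284 in tumours. The summed level of the 40 endothelial genes was 82070 to 91779 in wild type and 34089 to 58354 in tumours. At 7 months 9 of the 12 epithelial genes were higher, with sums of 17863 to 20028 in wild type and 24782 to 26439 in mutant lung. The endothelial sums at that age were 114140 to 117620 and 81392 to 100710. Alveolar type 1 genes, whose cells lie against the capillaries, were lower in 3 of 12 cases in tumours and in 2 of 12 at 7 months. Their sums were 45622 to 49959 in wild type and 24645 to 41747 in tumours, and 58595 to 60790 and 48766 to 55219 at 7 months. The part of these cell types in the endothelial values was not tested.

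Stromal and blood cell lists gave further values, to be read beside the same shares of all genes. All 10 smooth muscle genes had a positive log2 fold change in tumours, but 1 was called, and their sums were 9270.3 to 12202 in wild type and 12320 to 16640 in tumours. At 7 months all 10 were negative and 1 was called lower. Fibroblast genes split, with 3 of 12 higher and 3 lower in tumours. Macrophage genes were lower in 5 of 12 cases in tumours, with sums of 42235 to 49925 and 23337 to 31958, and in 0 of 12 at 7 months, where 0 had an unadjusted p under 0.05 (limma). All 8 cardiac muscle genes, which the lung reads in the muscle sleeve of its veins, were higher in tumours, with sums of 12890 to 18647 and 32692 to 37049. Of 10 T and NK cell genes 1 was lower in tumours, beside 6.02% of all genes. Of 9 alveolar type 2, 5 B cell and 6 platelet and red cell genes 0 were called in tumours (limma). At an unadjusted p under 0.05, 1 alveolar type 2 gene and 1 platelet or red cell gene were lower, and 3 B cell genes were higher. Over all 18193 genes, 2489 were lower and 3106 higher at that threshold.

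**Figure D4:**
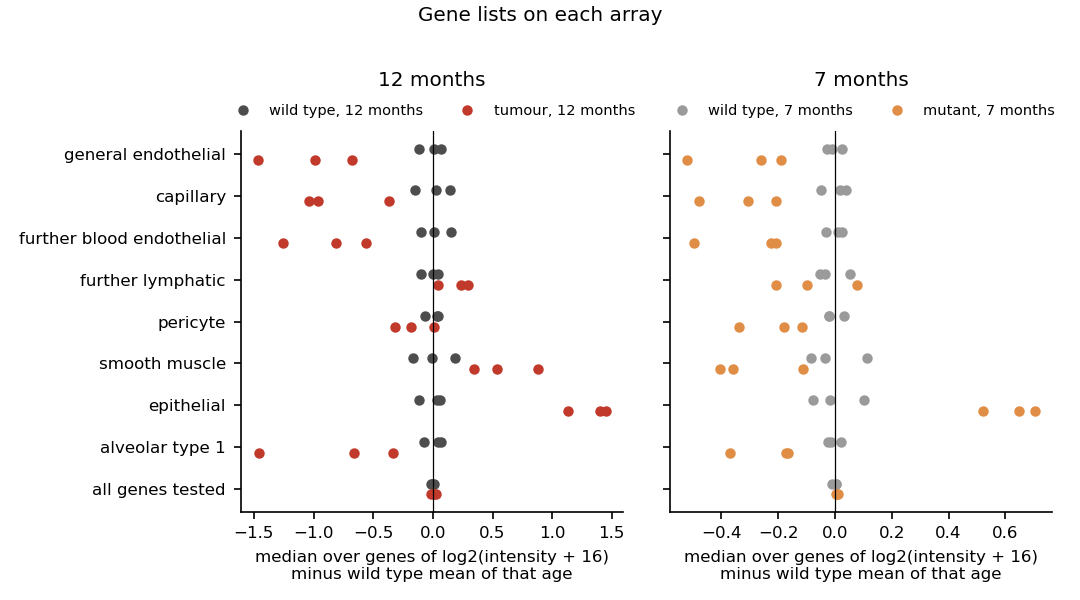
Median log2 deviation from the wild type mean of the same age over the genes of each list, with 1 point per array, for the 32 general and 6 capillary endothelial genes and for lists of other vascular and other cell types; the left panel (12 months) spans a wider axis than the right one (7 months). The general endothelial median is at -0.99, -0.67 and -1.47 in the 3 tumours and at -0.19, -0.26 and -0.52 in the 3 mutant lungs, while the epithelial median is at 1.45, 1.13 and 1.40 in the tumours.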

How the data were processed

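The authors deposited 1 linear intensity per probe set and array, with array medians at a common level; per the labels' protocols, RNA was extracted with TRIzol and RNeasy and labelled with the Affymetrix 3' IVT Express kit. Background correction, summarization and scaling are not given in the sources used here. Probe sets naming exactly 1 gene symbol in the platform annotation were kept (34945 of 45101), and per gene the one with the highest mean log2(intensity + 16) over 15 arrays, which left 18193 genes. Positions are from RefSeq (GRCm38.p6).

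Groups were compared with limma 3.58.1 in R 4.3.3 on log2(intensity + 16), two-sided, with Benjamini-Hochberg adjustment over all genes and a threshold of 0.05. Fold changes on this scale understate changes of dim genes. The 12-month arrays were fitted on their own (6 arrays) and the 7-month arrays in 1 model of 9, which includes a further group; that group and a further part of the genotype are not reported here. The difference between both effects used all 15 arrays. On simulated arrays, 28.4%, 56.7% and 89.4% of genes changed 1.5, 2 and 4-fold were recovered for tumours, with 3 false calls. At 7 months 50.7%, 85.1% and 97% were, with 5. The simulation drew each gene on its own, with 1 spread for all groups. In the data the members had a median coefficient of variation of 30.8% in tumours and 10% in 12-month wild type. The simulated shares may therefore not hold for these arrays.

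The labels do not say that arrays hold separate animals, so p-values measure the spread between these samples, which may be technical. No pair of arrays was identical. The 7-month titles share replicate numbers, but same-numbered arrays did not deviate together (correlations -0.15, 0.05 and -0.14), so no block was used. The members, the 18 further gene lists and the tests were chosen with earlier results of these data known. All 40 members are accounted for; values of every array are given for the capillary and lymphatic genes and for the 12 general genes with the smallest adjusted p in tumours. Of each vascular list, up to 4 called genes per comparison are named, and genes outside these rules are marked. Alternatives covered normalization, pseudocount, dim genes, variance model, array weights, probe set choice, samples in the fit, wild type sex and single arrays.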

Additional observations from a re-analysis of the deposited data

Results flagged for a closer look

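Of the 40 members and the vascular list genes, 9 had a tumour effect that differed from the effect in 7-month mutant lung. This was by the contrast over all 15 arrays (limma, adjusted p under 0.05), which called 576 of all 18193 genes (3.17%). The 1 member called of 40 is near that share. Tie1, this member, had a difference of -0.90 on the log2 scale (adjusted p = 0.0289), with the lower value in tumours. It was called in 16 of 21 settings. Among the vascular genes around the members, Rgs5 had a difference of 2.03 (adjusted p = 0.0301), Selp of 1.65 (adjusted p = 0.0417), Kcnj8 of 1.40 (adjusted p = 0.00483), Abcc9 of 1.04 (adjusted p = 0.0299) and Exoc3l2 of 0.78 (adjusted p = 0.0179). These 5 were called higher in tumours and were not called at 7 months. Scn7a had a difference of -0.95 (adjusted p = 0.0274), Higd1b of -0.89 (adjusted p = 0.0460) and Nrp2 of -0.77 (adjusted p = 0.0238). All 3 were lower in tumours, and Nrp2 was also called lower at 7 months. Of the 9, Kcnj8 stayed past the threshold in all 21 settings tried, and the highest adjusted p of the other 8 lay between 0.0572 for Nrp2 and 0.648 for Exoc3l2, which is dim. The contrast joins arrays of 2 ages, so age, tumour tissue and array set cannot be told apart.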

How the results depend on the processing

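The 24 members called in tumours kept their sign in all 17 settings tried, other single probe sets apart, and Tie1 and Mmrn2 were called in all of them. The 6 members called at 7 months kept theirs in 18 settings, with none called in all. Leaving out 1 array, the number of members lower in tumours ranged from 2 to 31 and the number higher from 0 to 1. At 7 months the ranges were 3 to 9 and 0 to 1, and for the difference 0 to 20 lower. In the same fits the share of all genes called lower ran from 1.21% to 7.84% in tumours. It ran from 0.638% to 0.989% at 7 months and from 0.594% to 5.35% for the difference. With only the wild type array with Y-linked transcripts and low Xist, 0 members were higher in tumours. At 7 months the number lower was 10 with median centring, 10 with a pseudocount of 64, 11 with dimmer genes left out, 15 with a variance trend and robust fitting, 0 in a common fit of 15 arrays, 1 in a fit of the 2 groups and 4 with array weights. With the replicate block it was 5. For the difference it was 3 with a pseudocount of 64, 3 with dimmer genes left out, 2 with a variance trend and 9 with array weights. Over all genes the share called lower in these settings ran from 0.203% to 3.79% at 7 months. For the difference it ran from 1.9% to 2.83%. The cause was not tested. Signs turned only in genes without a call in the comparison named. In tumours, leaving out 1 array gave -0.41 to 0.27 for Aplnr and -0.095 to 0.078 for Cdh5; Emcn was at 0.22 with 1 wild type array and another probe set of Prox1 at -0.15. At 7 months the ranges were -0.32 to 0.013 for Apln, -0.34 to 0.022 for Aplnr, -0.075 to 0.41 for Selp, -0.062 to 0.17 for Abcc9 (-0.020 with array weights) and -0.17 to 0.024 for Exoc3l2. For the difference they were -0.27 to 0.41 for Aplnr and -0.36 to 0.0053 for Ednrb. Array weights gave -0.14 for Aplnr, the mean of probe sets -0.11 for Aplnr and -0.22 for Cdh5, and other probe sets -0.31 for Aplnr, -0.625 for Cdh5, 0.25 for Ednrb, 0.11 for Calcrl and 0.41 for Cd93. Dim genes near the added 16, among them Madcam1, Gdf2 and Exoc3l2, have folds that depend on it.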
